A study of Mus musculus with 12 samples.

Results

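Matrix metalloproteinases are zinc-dependent enzymes that cut collagens, proteoglycans and other proteins of the extracellular matrix, and tissue inhibitors of metalloproteinases (the Timp proteins) block them by binding the active site. The 10 genes described here were chosen by name from the 18609 genes listed in each library: the 7 metalloproteinases Mmp2, Mmp3, Mmp10, Mmp12, Mmp13, Mmp14 and Mmp19, and the 3 inhibitors Timp1, Timp2 and Timp3. All 10 were listed. The collagenase and gelatinase that neutrophils store in granules, Mmp8 and Mmp9, were left out of the choice and appear only as a comparison. Most metalloproteinases are secreted as inactive precursors, so RNA reports how much of the gene's message is present and not how much enzyme is active. In tumours much of this RNA is known to come from fibroblasts, macrophages and endothelial cells rather than from the cancer cells.

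RNA was sequenced from tumours of MC38, a transplantable colon cancer line from C57BL/6 mice. The groups were TLR4-deleted C57BL/6 hosts given Salmonella, TLR4-deleted hosts given PBS, wild-type C57BL/6 hosts given Salmonella, and wild-type hosts given PBS, with 3 libraries in each of the 4 groups and 12 in all. Both agents were injected into a vein, and all tumours were taken 1 day later. The labels give the TLR4 genotype of the mice, not of the tumour cells, and name no Salmonella strain, dose, age or tumour size. Titles number the libraries of a group F-1, M-1 and M-2 without stating that each is a separate animal, so p-values measure the spread between libraries, which may be partly technical. TLR4 is a receptor for bacterial lipopolysaccharide.

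Values are FPKM (fragments divided by gene length and by library total), as the authors deposited them, so levels of different genes can be set side by side per length. The values give 30508678 to 38758885 fragments per library on the listed genes. Differences were tested with limma on log2(FPKM / scaling factor + 0.5), with Benjamini-Hochberg adjustment over the 12164 genes tested and a threshold of 0.05. Every fold change below is on that scale, which understates changes of low genes such as Mmp10. The 10 genes all passed the filter of 0.5 FPKM in at least 3 libraries, Mmp10 with 8 libraries and the other 9 with 12. Scaling factors were 0.844 and 0.845 in wild-type Salmonella libraries F-1 and M-1 and 1.001 to 1.049 elsewhere, so those 2 libraries stand apart from the third of their group. Tlr4 itself was at 1.73 to 1.96 FPKM in knockout Salmonella, 1.59 to 3.15 FPKM in knockout PBS, 2.58 to 3.78 FPKM in wild-type Salmonella and 2.48 to 2.58 FPKM in wild-type PBS libraries. Under PBS its log2 difference between knockout and wild type was -0.15 (SE 0.20, adjusted p = 1) and under Salmonella -0.72 (SE 0.20, adjusted p = 0.0502). No label says which exons were deleted, so this RNA level does not check the labels, and "knockout" below means the label.

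The labelled cell type is colon cancer cells. Of 5 epithelial markers (Krt8, Krt18, Krt19, Epcam and Cdh1), 4 were under 1 FPKM in every library, Krt18 was under 0.1 FPKM in every library, and the highest single value was 2.13 FPKM for Krt19 in a wild-type Salmonella library. Fibroblast and pericyte markers, 12 genes led by Col3a1, summed to 914 to 1221 FPKM in knockout Salmonella, 887 to 1249 FPKM in knockout PBS, 1563 to 2112 FPKM in wild-type Salmonella and 1031 to 1266 FPKM in wild-type PBS libraries. These tissues are mixtures, in which more cells of a type and more RNA per cell cannot be told apart.

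At baseline Timp1, Mmp2 and Mmp14 had the highest levels. In wild-type PBS libraries Timp1 averaged 245 ± 16.9 FPKM (SD, n = 3), Mmp2 207 ± 26.0 and Mmp14 158 ± 12.3. The ranges of Timp1 and Mmp2 overlapped, and Mmp14 lay below both. Timp2 followed at 43.3 ± 5.80 FPKM and Timp3 at 19.6 ± 4.48, each clear of its neighbours. Mmp19 (7.13 ± 1.46), Mmp3 (6.22 ± 2.74), Mmp12 (4.36 ± 1.55) and Mmp13 (3.15 ± 1.66) formed a low group whose neighbours in this order overlapped, and Mmp10 was lowest at 0.428 ± 0.316. Knockout PBS libraries had the same order of group means, with Timp1 at 250.1 ± 6.92, Mmp2 at 227 ± 69.7, Mmp14 at 168 ± 11.6, Timp2 at 46.9 ± 2.83, Timp3 at 18.3 ± 7.67 and the low 5 between 0.453 and 6.81 FPKM.

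Salmonella was compared with PBS within each host. In knockout hosts limma called 0 of the 10 genes higher, where 0.427% of all tested genes were called higher, and 0 lower, where 0.329% were called lower. Voom on recovered fragments also called 0, and 5 of the 10 had an unadjusted p under 0.05, as did 2330 of the 12164 tested genes. The median log2 fold change of the 10 was -0.22, against 0 over all tested genes. In wild-type hosts Salmonella was followed by more RNA of Mmp3, Mmp10, Mmp13, Mmp19 and Timp1 and less of Timp2, which is 5 genes higher (background 19.2%) and 1 lower (background 16.2%). The median there was 0.52, against 0 over all genes, and Mmp2, Mmp12, Mmp14 and Timp3 did not pass.

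**Figure D1:**
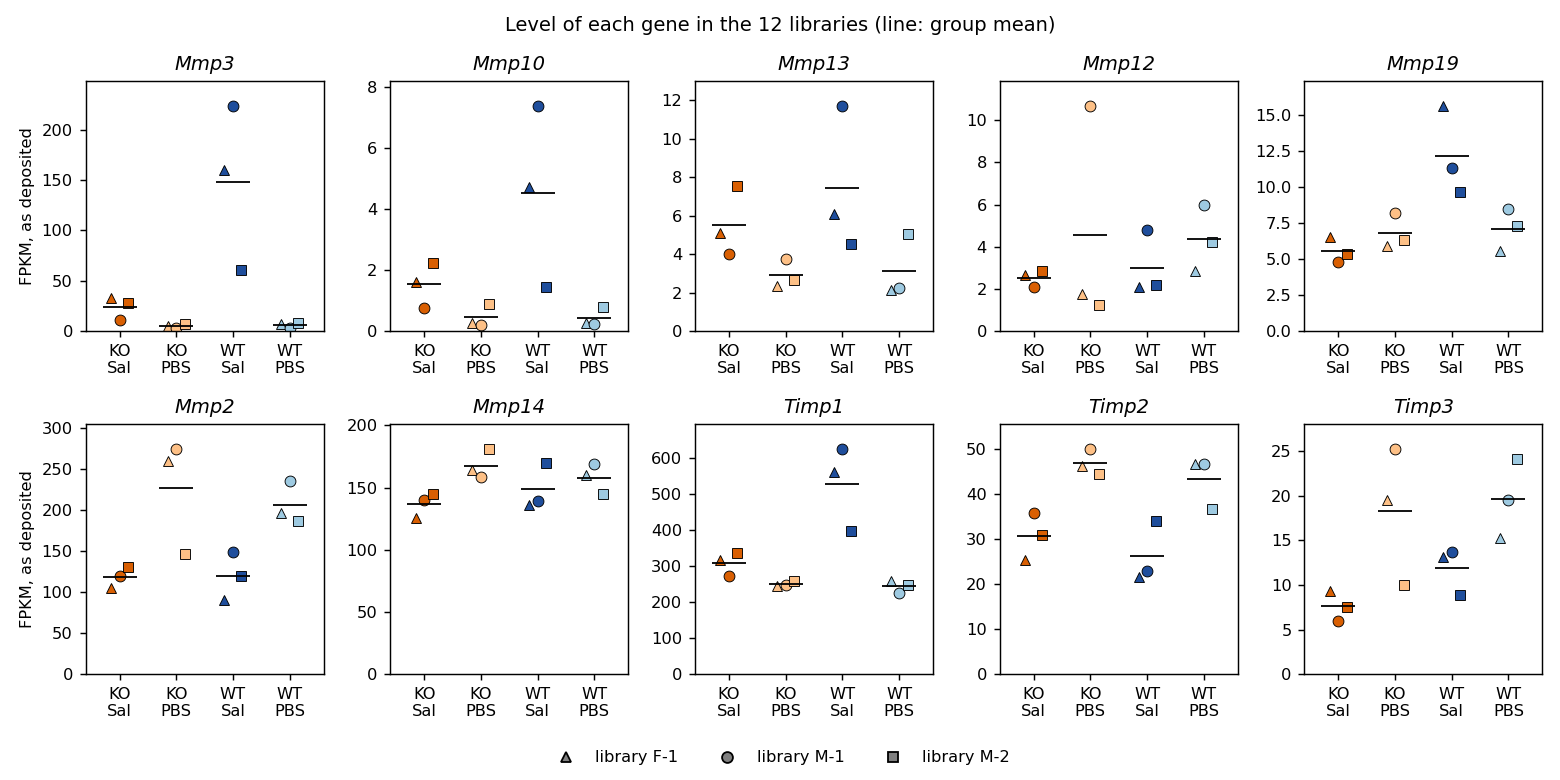
FPKM of each of the 10 genes (vertical axes, linear, from 0) in the 12 libraries, by group; each point is 1 library, its shape gives the library label, and the line is the group mean. Mmp3, Mmp19 and Timp1 had all 3 wild-type Salmonella libraries above all 9 others, while Timp2 was lower in both Salmonella groups than in either PBS group.

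The stromelysins had the 2 largest fold changes of the 10 genes in wild-type hosts. Mmp3 encodes stromelysin-1, an enzyme with broad substrates that also cuts the precursors of other metalloproteinases and so activates them. It stood at 32.7, 11.1 and 27.7 FPKM in knockout Salmonella tumours (F-1, then M-1, then M-2, here and below), 5.35, 3.25 and 7.30 FPKM in knockout PBS, 160.0, 224 and 60.9 FPKM in wild-type Salmonella, and 6.88, 3.21 and 8.57 FPKM in wild-type PBS libraries. All wild-type Salmonella libraries lay above all others, the knockout Salmonella libraries lay between, and the PBS groups overlapped. In knockout hosts the log2 fold change was 2.02 (SE 0.59, 4.05-fold, adjusted p = 0.123), which did not pass. It was the 36th highest of the 12164 tested genes there. In wild-type hosts it was 4.57 (SE 0.59, a 23.8-fold rise, adjusted p = 0.00114), the 38th highest of the 12164 tested genes.

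Mmp10 encodes stromelysin-2, the closest relative of Mmp3. It had 1.62, 0.773 and 2.23 FPKM in knockout Salmonella, 0.261, 0.210 and 0.886 FPKM in knockout PBS, 4.72, 7.37 and 1.45 FPKM in wild-type Salmonella, and 0.262, 0.229 and 0.792 FPKM in wild-type PBS libraries. Its knockout groups overlapped and its wild-type groups did not. The log2 fold change was 1.10 in knockout hosts (SE 0.54, adjusted p = 0.292) and 2.43 in wild-type hosts (SE 0.54, adjusted p = 0.00822). Transcripts of Mmp10 and Mmp3 share an identical run of 104 bases (GENCODE M21). How the authors' counting treated fragments within that run, including those of the far more abundant Mmp3, is not stated. The fragments behind Mmp10 numbered 14 to 390 per library.

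Mmp13 encodes collagenase-3, which cuts fibrillar collagen. It was at 5.07, 4.01 and 7.54 FPKM in knockout Salmonella, 2.33, 3.75 and 2.68 FPKM in knockout PBS, 6.10, 11.7 and 4.54 FPKM in wild-type Salmonella, and 2.14, 2.24 and 5.05 FPKM in wild-type PBS libraries. One wild-type PBS library, M-2, lay above the lowest wild-type Salmonella library, also M-2, so these groups overlapped; the knockout groups did not. The log2 fold change was 0.82 in knockout hosts (SE 0.40, adjusted p = 0.294) and 1.30 in wild-type hosts (SE 0.40, adjusted p = 0.0301). The wild-type call for Mmp13 held in 9 of 14 alternative settings and was lost without wild-type PBS F-1 or M-1, without wild-type Salmonella F-1 or M-1, and with only the wild-type groups in the fit, with adjusted p-values of 0.0789 to 0.0971.

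Mmp12, the elastase of macrophages, gave no clear pattern. Its values were 2.67, 2.11 and 2.84 FPKM in knockout Salmonella, 1.78, 10.7 and 1.24 FPKM in knockout PBS, 2.09, 4.78 and 2.19 FPKM in wild-type Salmonella, and 2.87, 5.97 and 4.23 FPKM in wild-type PBS libraries. Library M-1 was the highest in 3 of the 4 groups. All pairs of groups overlapped except knockout Salmonella with wild-type PBS, where the highest library was at 2.84 FPKM in knockout Salmonella and the lowest at 2.87 FPKM in wild-type PBS. Estimates of the log2 fold change were -0.21 in knockout hosts (SE 0.60, adjusted p = 0.879) and -0.32 in wild-type hosts (SE 0.60, adjusted p = 0.703). Its exons overlap Mmp1b on the other strand over 157 bases (GENCODE M21), and Mmp1b was at or under 0.312 FPKM in every library. Macrophage and monocyte markers, 10 genes, summed to 428 to 590 FPKM in knockout Salmonella, 470 to 932 FPKM in knockout PBS, 337 to 557 FPKM in wild-type Salmonella and 514 to 828 FPKM in wild-type PBS libraries.

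These 4 genes lie together on mouse chromosome 9. In the RefSeq annotation of GRCm38.p6 the order runs Dcun1d5, Mmp13, Mmp12, Mmp1b, Mmp3, Mmp10, Mmp8, Mmp27, Mmp20, Mmp7 and Tmem123, leaving out genes not analysed here. Mmp8, the neutrophil collagenase next to Mmp10, was at 3.41 to 8.60 FPKM in knockout Salmonella, 0.111 to 0.626 FPKM in knockout PBS, 30.7 to 135 FPKM in wild-type Salmonella and 0.539 to 0.893 FPKM in wild-type PBS libraries. It rose in both hosts, by 3.05 on the log2 scale in knockout (adjusted p = 0.0412) and 5.70 in wild-type hosts (adjusted p = 0.000344). Further along, Mmp27 reached 0.462 to 0.845 FPKM in wild-type Salmonella libraries and at most 0.439 FPKM elsewhere, too low to be tested. Mmp1b, Mmp20 and Mmp7 stayed at or under 0.312 FPKM in every library. The flanking genes had small differences in wild-type hosts, 0.37 for Dcun1d5 (adjusted p = 0.0318) and 0.38 for Tmem123 (adjusted p = 0.0535). The 95% interval of the log2 fold change of Mmp12 in wild-type hosts, -1.66 to 1.03, lay below that of Mmp3, 3.25 to 5.89, and that of Mmp10, 1.24 to 3.62.

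**Figure D2:**
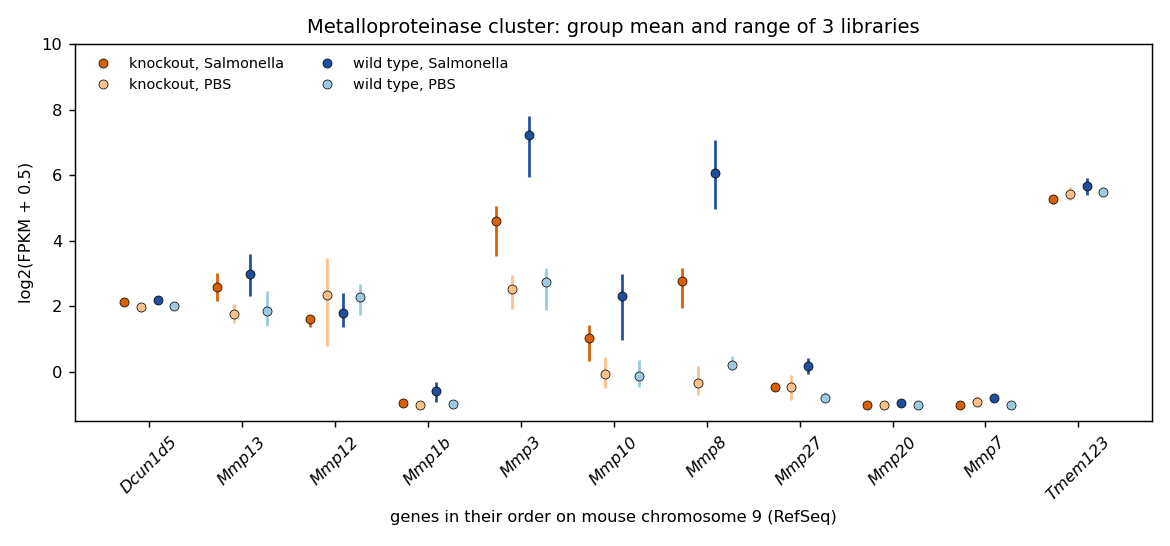
Genes of the chromosome 9 metalloproteinase cluster in their RefSeq order (horizontal axis) and log2(FPKM + 0.5) by group (vertical axis); points are group means and lines run from the lowest to the highest of 3 libraries. Means of wild-type Salmonella libraries were the highest for Mmp3, Mmp10, Mmp8, Mmp13 and Mmp27, and also for the flanking genes Dcun1d5 and Tmem123. Mmp12 overlapped between Salmonella and PBS in both hosts, and Mmp1b, Mmp20 and Mmp7 lay near 0 FPKM.

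Promoters of this cluster are known for sites of AP-1, a dimer of Fos and Jun family proteins, whose core can be written TGANTCA. RefSeq promoter sequences of GRCm38.p6 were matched for 8 of the 10 genes, with 2 start sites for Mmp12 and so 9 promoters; Mmp2 and Mmp19 were not matched. In the 250 bases before the start, TGANTCA (the same on both strands) was found in promoters of Mmp3, Mmp10, Mmp13 and the second start of Mmp12, and not in the windows of Mmp14, Timp1, Timp2, Timp3 or the first start of Mmp12. Over all 32851 promoters of that length 6.7% held it. The 4 promoters are shown because they carry the element that these neighbouring genes share. Each run is the last 120 bases before the start on the plus strand of chromosome 9, with TGANTCA in capitals: Mmp3 at chr9:7445702-7445821, Mmp10 at chr9:7502222-7502341, Mmp13 at chr9:7272394-7272513 and the second start of Mmp12 at chr9:7347254-7347373. None of the 4 windows overlaps an annotated exon (GENCODE M21).
Mmp3: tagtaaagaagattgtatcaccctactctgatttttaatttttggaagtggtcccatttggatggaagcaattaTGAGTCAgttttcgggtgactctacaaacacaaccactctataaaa
Mmp10: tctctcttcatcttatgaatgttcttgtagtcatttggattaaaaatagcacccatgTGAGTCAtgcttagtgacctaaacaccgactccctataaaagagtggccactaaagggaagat
Mmp13: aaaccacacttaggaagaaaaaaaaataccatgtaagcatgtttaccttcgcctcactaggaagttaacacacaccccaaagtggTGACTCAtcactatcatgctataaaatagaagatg
Mmp12: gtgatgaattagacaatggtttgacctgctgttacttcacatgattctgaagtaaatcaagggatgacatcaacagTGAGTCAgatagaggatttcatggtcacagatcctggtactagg
The element began 46 bases before the start in Mmp3, 63 in Mmp10, 35 in Mmp13 and 44 in Mmp12. It read TGAGTCA in Mmp3, Mmp10 and Mmp12 and TGACTCA in Mmp13. TATAAA, searched on both strands, lay in the 250-base windows of Mmp3, Mmp10 and Mmp13 and in 12.4% of all promoters. It began 7 bases before the start in Mmp3, 29 in Mmp10 and 16 in Mmp13. All these distances are to the annotated starts, whose placement was not tested, so they may not compare between genes. AGGAAG, a form of the core that ETS factors bind, lay in 6 of the 9 promoters and in 29.5% of all. Mmp12, with the element at 1 of its 2 starts, did not pass the test in either host, and Timp1, with no TGANTCA in its window, rose in wild-type hosts. These matches describe letters in a window, not binding. Only exact TGANTCA in the 250 bases before the start was searched for this element. Any part of AP-1 in the results for these genes was not tested.

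Mmp19, a secreted metalloproteinase outside this cluster, lies on chromosome 10. It was at 6.56, 4.84 and 5.35 FPKM in knockout Salmonella, 5.92, 8.18 and 6.31 FPKM in knockout PBS, 15.7, 11.3 and 9.65 FPKM in wild-type Salmonella, and 5.60, 8.50 and 7.28 FPKM in wild-type PBS libraries. Every wild-type Salmonella library lay above all 9 others, and the knockout groups overlapped. In knockout hosts the estimated log2 fold change was -0.24 (SE 0.23, adjusted p = 0.595), while in wild-type hosts it was 0.93 (SE 0.23, adjusted p = 0.0116). Exons of Mmp19 overlap genes on the other strand, Tmem198b among them, over 1001 bases (GENCODE M21), and no strand setting is given in the sources used here, so reads there cannot be assigned to one gene. Tmem198b was at 3.82 to 8.44 FPKM over all libraries, with a log2 fold change of -0.19 in wild-type hosts (adjusted p = 0.304).

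Mmp2 and Mmp14 form the gelatinase axis. Mmp2 encodes gelatinase A, which degrades denatured collagen and basement membrane, and Mmp14 encodes a membrane-anchored metalloproteinase that activates the Mmp2 precursor on the cell surface with Timp2 as a bridge. Mmp2 was at 105, 119 and 131 FPKM in knockout Salmonella, 259, 274 and 147 FPKM in knockout PBS, 90.3, 149 and 119 FPKM in wild-type Salmonella, and 197, 236 and 187 FPKM in wild-type PBS libraries. In both hosts all Salmonella libraries lay below all PBS libraries, yet the test was not passed: the log2 fold change was -0.86 in knockout hosts (SE 0.24, adjusted p = 0.106) and -0.60 in wild-type hosts (SE 0.24, adjusted p = 0.0650). It passed in knockout hosts without knockout PBS M-2, the lowest PBS library (-1.14, adjusted p = 0.0194), and in wild-type hosts without wild-type Salmonella M-1, the highest Salmonella library (-0.82, adjusted p = 0.0325). Mmp14 was at 125, 139.9 and 145 FPKM in knockout Salmonella, 164, 159 and 181 FPKM in knockout PBS, 136, 139.6 and 170.1 FPKM in wild-type Salmonella, and 160.4, 169 and 145 FPKM in wild-type PBS libraries. Its estimates were small and precise, -0.27 in knockout hosts (SE 0.09, adjusted p = 0.161) and 0.11 in wild-type hosts (SE 0.09, adjusted p = 0.354), and the second turned to -0.09 with FPKM as deposited.

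The 3 inhibitors went different ways. Timp1 is a soluble inhibitor known to be induced in inflammation. It was at 318, 273 and 338 FPKM in knockout Salmonella, 246, 247 and 258 FPKM in knockout PBS, 562, 624 and 399 FPKM in wild-type Salmonella, and 260.2, 227 and 248 FPKM in wild-type PBS libraries. Wild-type Salmonella libraries lay above all others, and knockout Salmonella libraries lay above both PBS groups. Its log2 fold change was 0.33 in knockout hosts (SE 0.20, 1.25-fold, adjusted p = 0.394) and 1.29 in wild-type hosts (SE 0.20, 2.44-fold, adjusted p = 0.00151).

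Timp2 inhibits metalloproteinases broadly and also takes part in activation of Mmp2. It had 25.3, 35.8 and 30.9 FPKM in knockout Salmonella, 46.3, 49.96 and 44.4 FPKM in knockout PBS, 21.6, 23.1 and 34.1 FPKM in wild-type Salmonella, and 46.6, 46.7 and 36.6 FPKM in wild-type PBS libraries. In both hosts the Salmonella libraries lay below the PBS libraries. The estimate in knockout hosts was -0.59 on the log2 scale (SE 0.14, adjusted p = 0.0735). In wild-type hosts Timp2 fell by 0.53 (SE 0.14, adjusted p = 0.0137), a call lost without wild-type Salmonella F-1 (adjusted p = 0.0586) or M-1 (adjusted p = 0.0508). The difference between those 2 effects was -0.06 (SE 0.19, 95% interval -0.49 to 0.36).

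Timp3 binds to the matrix and also inhibits ADAM and ADAMTS proteases. Its values were 9.39, 6.03 and 7.60 FPKM in knockout Salmonella, 19.6, 25.2 and 10.1 FPKM in knockout PBS, 13.1, 13.7 and 8.88 FPKM in wild-type Salmonella, and 15.2, 19.5 and 24.2 FPKM in wild-type PBS libraries. In each host the Salmonella libraries lay below the PBS libraries in FPKM as deposited. After scaling this held in knockout hosts only: in wild-type hosts the highest Salmonella library was at 16.2 and the lowest PBS library at 14.7. The log2 fold change was -1.10 in knockout hosts (SE 0.34, adjusted p = 0.134) and -0.50 in wild-type hosts (SE 0.34, adjusted p = 0.267). Without knockout PBS M-2 the knockout estimate passed (-1.47, adjusted p = 0.0348). Exons of Timp3 overlap Syn3 on the other strand over 1733 bases, and Syn3 was at or under 0.00787 FPKM in every library.

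**Figure D3:**
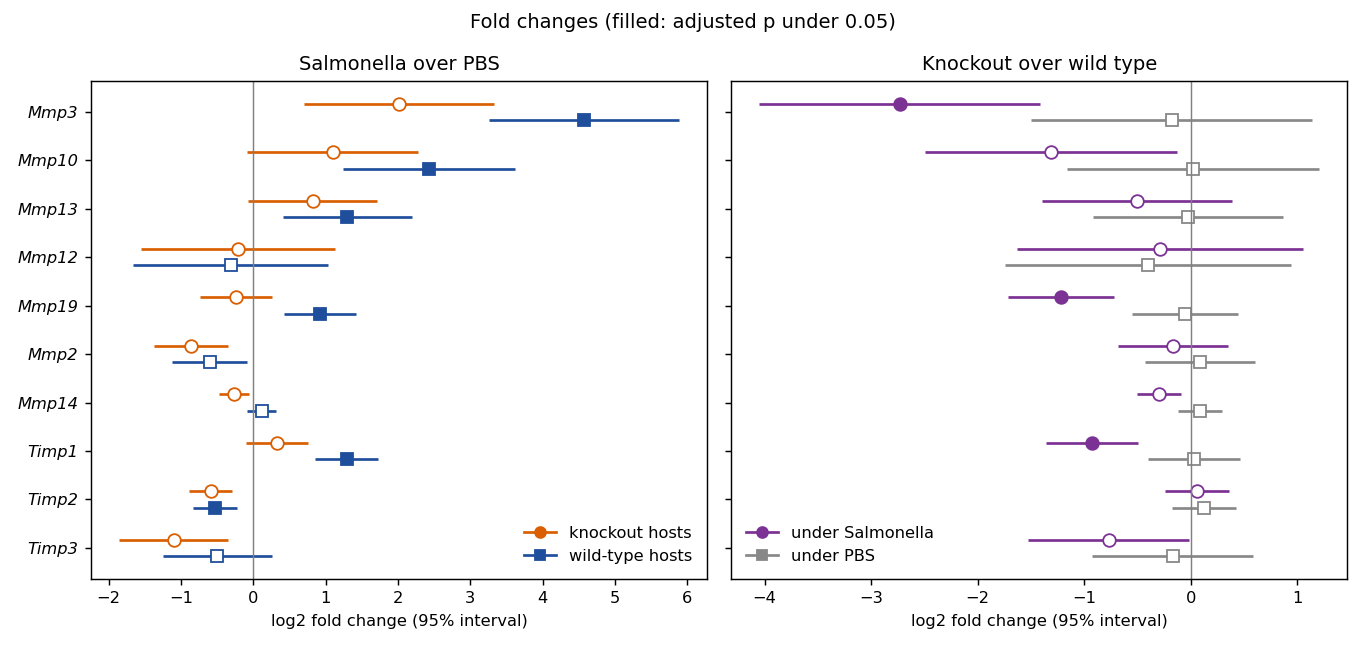
Log2 fold changes of the 10 genes with 95% intervals (horizontal axes), Salmonella over PBS in each host on the left and knockout over wild type under each treatment on the right; filled symbols passed an adjusted p of 0.05. In wild-type hosts 5 genes passed upward and Timp2 downward, and under Salmonella Mmp3, Mmp19 and Timp1 were lower in knockout than in wild-type hosts.

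Tumours of knockout and wild-type hosts were then compared directly. Under Salmonella 3 of the 10 genes were lower in knockout hosts (background 5.82%) and 0 were higher (background 2.92%). Mmp3 was lower by a log2 difference of -2.73 (SE 0.59, 0.150-fold, adjusted p = 0.0268), Mmp19 by -1.22 (SE 0.23, 0.430-fold, adjusted p = 0.0169) and Timp1 by -0.93 (SE 0.20, 0.525-fold, adjusted p = 0.0220). In each of these 3 genes the groups did not overlap. The estimate for Mmp14 was -0.29 (SE 0.09, adjusted p = 0.0677), for Mmp10 -1.31 (SE 0.54, adjusted p = 0.134) and for Timp3 -0.77 (SE 0.34, adjusted p = 0.159); Mmp13, Mmp12, Mmp2 and Timp2 had adjusted p-values of 0.413 to 0.791. The median over the 10 was -0.64, against 0.001 over all genes.

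These calls depended on single libraries and on the shared estimate of spread. All 3 were lost without wild-type Salmonella F-1, without wild-type Salmonella M-1, without knockout Salmonella M-1 and without knockout Salmonella M-2, and in a fit of the 2 Salmonella groups alone, where adjusted p was 0.115 for Mmp3, 0.0907 for Mmp19 and 0.125 for Timp1. Without wild-type Salmonella M-2, 6 genes passed: Mmp10, Mmp14 and Timp3 joined them. Calls over all 12164 genes numbered 4559 in that fit, against 1063 with all libraries, and the estimate for Mmp14 stayed at -0.29.

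Under PBS limma and voom each called 0 of the 10 genes higher and 0 lower in knockout hosts, with a background of 0% in either direction and 0 of the 10 at an unadjusted p under 0.05 (176 of the 12164 tested genes). The intervals bound the difference to between -0.40 and 0.47 for Timp1 on the log2 scale, but only to between -1.495 and 1.14 for Mmp3 and between -1.74 and 0.94 for Mmp12.

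The interaction asks whether the Salmonella effect itself differed between hosts (knockout effect minus wild-type effect). Limma called 0 of the 10 genes higher (background 0%) and 0 lower (background 0.0247%), voom called 0 as well, and 4 of the 10 had an unadjusted p under 0.05, as did 1746 of the 12164 tested genes. Those were Mmp3 at -2.56 (SE 0.84, adjusted p = 0.265), Mmp19 at -1.16 (SE 0.32, adjusted p = 0.230), Timp1 at -0.96 (SE 0.28, adjusted p = 0.238) and Mmp14 at -0.39 (SE 0.13, adjusted p = 0.271). So for no gene was a call in wild-type and not in knockout hosts shown to be a difference between them. Without wild-type Salmonella M-2 the interaction passed for 4 genes, Mmp3, Mmp10, Mmp19 and Timp1, with adjusted p-values of 0.0192, 0.0278, 0.00749 and 0.00121; over all genes 2211 then passed, against 3 with all libraries.

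The make-up of metalloproteinase RNA is given as shares, without a test. Mmp3 made up 3.94 to 11.7% of the summed FPKM of the 7 metalloproteinases in knockout Salmonella, 0.71 to 2.11% in knockout PBS, 16.5 to 40.9% in wild-type Salmonella and 0.76 to 2.40% in wild-type PBS libraries. Mmp2 and Mmp14 together made up 82.6 to 91.9% in knockout Salmonella, 94.3 to 96.4% in knockout PBS, 52.7 to 78.6% in wild-type Salmonella and 92.8 to 95.3% in wild-type PBS libraries. In 2 wild-type Salmonella libraries, F-1 and M-1, Mmp3 was the second most abundant of the 10 genes after Timp1, whereas in PBS libraries it ranked sixth to ninth. Timp1 made up 86.7 to 90.2% of the inhibitor RNA in knockout Salmonella, 76.6 to 82.6% in knockout PBS, 90.3 to 94.4% in wild-type Salmonella and 77.4 to 80.8% in wild-type PBS libraries.

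The ratio of summed metalloproteinase to summed inhibitor FPKM averaged 0.848 ± 0.0524 in knockout Salmonella, 1.32 ± 0.179 in knockout PBS, 0.786 ± 0.0777 in wild-type Salmonella and 1.26 ± 0.168 in wild-type PBS libraries (SD, n = 3 each). It was under 1 in all 6 Salmonella libraries and over 1 in all 6 PBS libraries. The sums behind it are given by host. In knockout hosts the metalloproteinase sum was 279 to 322 FPKM under Salmonella and 346 to 459 FPKM under PBS. The inhibitor sum there was 315 to 376 FPKM under Salmonella and 311 to 322 FPKM under PBS. In wild-type hosts the metalloproteinase sum was 368 to 547 FPKM under Salmonella and 358 to 425 FPKM under PBS, and the inhibitor sum was 442 to 661 FPKM under Salmonella and 293 to 322 FPKM under PBS. The ratio is one of RNA, not of protein, and neither it nor the sums were tested.

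**Figure D4:**
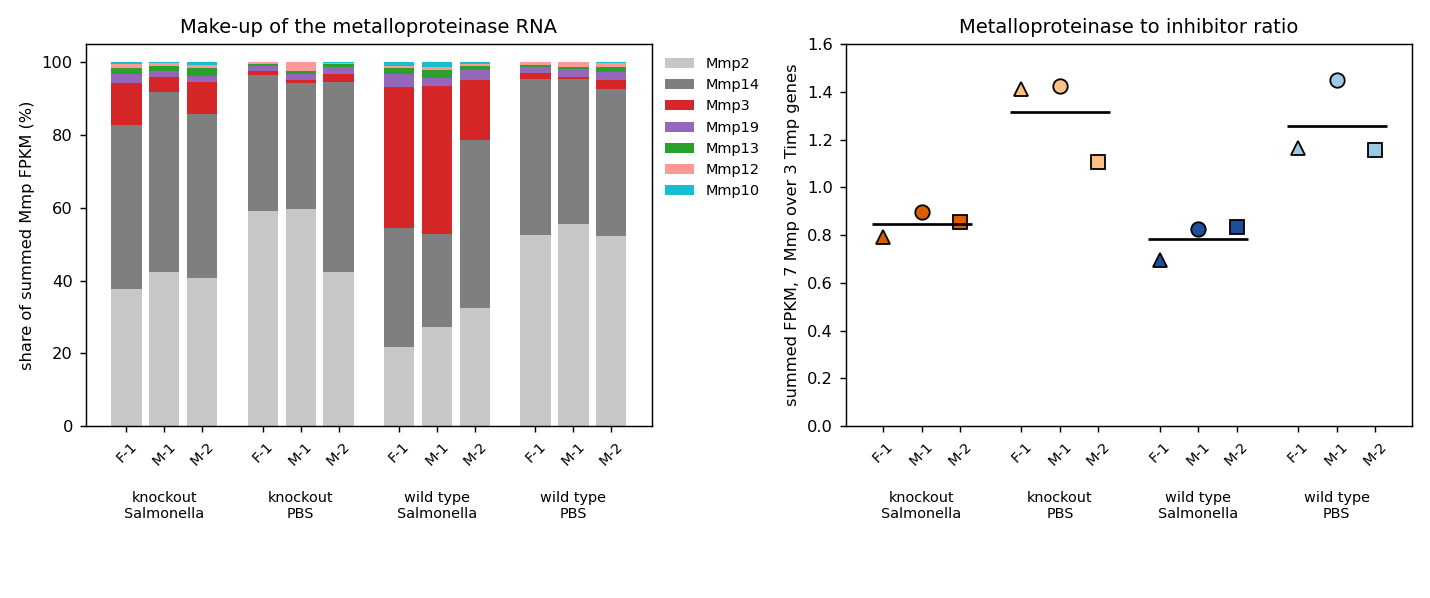
Left, share of the summed FPKM of the 7 metalloproteinases (vertical axis, %) taken by each gene in each library; right, ratio of summed metalloproteinase to summed inhibitor FPKM, with points for libraries and lines for group means. Mmp3 took 16.5 to 40.9% in wild-type Salmonella libraries, and the ratio was under 1 in all 6 Salmonella libraries.

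Profiles over the 12 libraries were compared between genes. Pearson r of log2(scaled FPKM + 0.5) was 0.969 for Mmp3 with Timp1, 0.962 for Mmp3 with Mmp10, 0.952 for Mmp10 with Timp1, and for Mmp13 0.916 with Mmp10, 0.855 with Mmp3 and 0.839 with Timp1. Timp2 ran the other way, with r = -0.872 against Mmp3 and -0.866 against Mmp10. The other tested genes were then ranked, leaving out provisional symbols (Gm with a number, or Rik). The closest to Mmp3 were Emcn, an endothelial sialomucin (r = 0.993), Ctsk, the collagen-cutting cathepsin K (r = 0.993), and Igfbp7 (r = 0.988). Closest to Timp1 were Sod2, the mitochondrial superoxide dismutase (r = 0.992), Egfr (r = 0.990) and Dennd4a (r = 0.989). Mmp10 was closest to Sh2d5 (0.981), Dedd2 (0.974) and Hypk (0.971), Mmp13 to Hoxb7 (0.958), Sh2d5 (0.922) and Ppp1r14a (0.922), and Mmp19 to Dapk1 (0.966), Abca3 (0.958) and Gng12 (0.956). Mmp2 was closest to Tsc22d4 (0.944), Haao (0.943) and Pak1 (0.940), Timp2 to Ldlrad4 (0.956), P3h4 (0.955) and Prr11 (0.954), and Timp3 to Plbd1 (0.945), Mapkapk3 (0.938) and Eif4e3 (0.929). For Mmp14 (Tm7sf3 at 0.866, Ccnb2 at 0.843 and Epn1 at 0.838) and Mmp12 (BC028528 at 0.904, Lamp2 at 0.887 and B3gnt2 at 0.876) the r values of the closest genes were lower. These r values describe points that share 4 groups and 1 scaling per library and carry no test. Whether fragments of the 104-base run that Mmp3 and Mmp10 share enter both profiles was not tested.

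Other genes of matrix proteolysis were read for context. The counts in this and the next lists stand beside the shares over all tested genes. With Salmonella these were 0.427% higher and 0.329% lower in knockout hosts, and 19.2% higher and 16.2% lower in wild-type hosts. Under Salmonella 2.92% were higher and 5.82% lower in knockout than in wild-type hosts. Of the other metalloproteinases and Timp4, 17 listed and 8 tested, only Mmp8 was called in knockout hosts (median 0.47). In wild-type hosts 4 rose (Mmp8, Mmp9 by 2.20, Mmp23 by 1.65 and Mmp15 by 0.84 on the log2 scale) and Mmp16 fell by 1.13, with a median of 0.98, and under Salmonella 3 were lower in knockout hosts (Mmp8, Mmp9 and Mmp23). Of 17 tested ADAM and ADAMTS proteases limma called 0 in knockout hosts (median 0.09), 8 rose and 0 fell in wild-type hosts (median 0.33), and under Salmonella Adam12 and Adamts2 were lower in knockout hosts. Adamts4, an aggrecanase, was at 15.6 ± 3.95 FPKM in knockout Salmonella, 7.87 ± 1.86 in knockout PBS, 20.8 ± 1.41 in wild-type Salmonella and 7.13 ± 0.838 in wild-type PBS libraries (SD, n = 3 each), with a log2 fold change of 1.69 in wild-type hosts (adjusted p = 0.000700). Adam12 had one of 1.81 (adjusted p = 0.00243).

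Of 14 tested activators and inhibitors outside the family, 8 rose and 1 fell in wild-type hosts, with a median of 0.62. Serpinb2, an inhibitor of urokinase, rose by 4.24 in knockout hosts (adjusted p = 0.00976), the only one of the 14 called there, and by 6.32 in wild-type hosts (adjusted p = 0.000136). Serpine2 rose by 1.89 in wild-type hosts (adjusted p = 0.00113) and Ctsk by 2.87 (adjusted p = 0.00114), while Plau, the urokinase gene, fell by 0.52 (adjusted p = 0.0407). Under Salmonella 7 of the 14 were lower in knockout hosts, Serpinb2, Serpine2 and Ctsk among them. Of 26 tested matrix proteins that these enzymes cut, limma called 0 in knockout hosts (median 0.26), 15 rose and Col6a1 fell in wild-type hosts (median 0.73), and 9 were lower in knockout hosts under Salmonella. Thbs1, thrombospondin 1, rose by 3.72 (adjusted p = 0.00145) and Dcn, the proteoglycan decorin, by 1.28 (adjusted p = 0.00338). Of these 26, 6 genes, Col1a1, Col1a2, Col3a1, Dcn, Lum and Postn, also stand on the fibroblast list.

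A list of cytokines and growth factors, drawn up as possible inducers of metalloproteinases, had 15 tested genes. Of these limma called 0 in knockout hosts (median 0.17). In wild-type hosts 5 rose and 2 fell (median 0.68), and 0 were called between hosts under Salmonella (median -0.74). Il1b was at 71.4, 52.8 and 102.6 FPKM in knockout Salmonella, 11.4, 16.6 and 6.25 FPKM in knockout PBS, 268, 756 and 117 FPKM in wild-type Salmonella, and 9.34, 10.6 and 9.71 FPKM in wild-type PBS libraries, with a rise of 4.997 on the log2 scale in wild-type hosts (adjusted p = 0.000937). Il1a rose by 5.41 (adjusted p = 0.00119) and Osm, oncostatin M, by 2.94 (adjusted p = 0.00358). The 2 that fell were the transforming growth factor genes Tgfb3, at -1.497 (adjusted p = 0.0124), and Tgfb1, at -0.32 (adjusted p = 0.00916). Of 16 AP-1, ETS and related factors limma called 0 in knockout hosts (median 0.05), 5 rose and 3 fell in wild-type hosts (median 0.15), and Batf, Cebpb and Ets2 were lower in knockout hosts under Salmonella. Batf rose by 3.04 (adjusted p = 0.00409), Cebpb by 1.30 (adjusted p = 0.00329), Fos by 1.11 (adjusted p = 0.0398) and Junb by 0.67 (adjusted p = 0.00826), while Jun fell by 0.50 (adjusted p = 0.00720) and Etv5 by 0.91 (adjusted p = 0.00360). In none of these 6 lists was an interaction called, where 0% of all tested genes were called higher and 0.0247% lower.

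Markers of stromal and infiltrating cells were read beside the shares over all tested genes. With Salmonella limma called 0.427% of all genes higher and 0.329% lower in knockout hosts. In wild-type hosts it called 19.2% higher and 16.2% lower. Under Salmonella 5.82% were lower in knockout than in wild-type hosts. Of 12 fibroblast and pericyte markers limma called 0 with Salmonella in knockout hosts (median log2 fold change 0.11). In wild-type hosts 6 were higher and 1, Pdgfrb, lower with Salmonella (median 0.67), and 4 were lower in knockout than in wild-type hosts under Salmonella. Of 7 endothelial markers 6 were higher with Salmonella in wild-type hosts and 0 were called in knockout hosts. Under Salmonella 4 of the 7 were lower in knockout than in wild-type hosts. Their sum was 39.4 to 54.8 FPKM in knockout Salmonella and 28.4 to 40.4 FPKM in knockout PBS libraries. In wild-type hosts it was 65.5 to 81.7 FPKM with Salmonella and 28.5 to 40.5 FPKM with PBS. The neutrophil list, which includes Mmp8 and Mmp9, summed to 540.2 to 958 FPKM in knockout Salmonella, 15.6 to 18.02 FPKM in knockout PBS, 2744 to 18490 FPKM in wild-type Salmonella and 16.9 to 27.5 FPKM in wild-type PBS libraries; 6 of 8 tested were higher with Salmonella in knockout and 8 of 8 in wild-type hosts. Skeletal muscle markers summed to 4.09 to 114 FPKM in knockout Salmonella, 2.70 to 11.4 FPKM in knockout PBS, 41.4 to 90.3 FPKM in wild-type Salmonella and 2.68 to 6.35 FPKM in wild-type PBS libraries, with 4 of 5 tested higher in wild-type hosts. Of the 10 macrophage and monocyte markers 2 were higher and 1 lower in wild-type hosts, not far from the shares over all genes. In knockout hosts 0 of these 10 were called. Keratinocyte markers summed to at most 3.85 FPKM. No interaction was called in any marker list, where 0% of all tested genes were called higher and 0.0247% lower. The part of these cell types in the results for Mmp3, Mmp10, Mmp13, Mmp19, Timp1 and Timp2 was not tested.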

How the data were processed

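RNA-seq of MC38 tumours was deposited as 1 table per library, 12 in all. Per the labels' protocols, TRIzol was used for total RNA and the VAHTS Universal V6 kit for the libraries. The submitters' processing notes name fastp, HISAT2 and HTSeq; their versions, the build, the annotation and the strand setting are not given there or in any label. The authors deposited 1 value per gene and library, taken here as FPKM from the values themselves: for 18609 of 18609 genes (100.0%) they were whole fragments at 1 gene length within 0.01 fragments, with 30508678 to 38758885 fragments per library. Of these genes 387 were at 0 in every library, and no library pair was identical.

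Groups were taken from the genotype and treatment labels. FPKM were divided by scaling factors obtained by trimming 30% of log ratios and 5% of levels at each end and averaging the rest and tested as log2(value + 0.5) with limma 3.58.1 in R 4.3.3, with an intensity trend and robust empirical Bayes, on all 12 libraries with 8 residual degrees of freedom. The test covered the 12164 genes that reached 0.5 FPKM in 3 or more libraries; p-values are two-sided and adjusted by Benjamini-Hochberg over them, with 0.05 as threshold. The fit was tested on simulated data. Alternatives were median-of-ratios scaling, values as deposited, no filter, pseudocounts of 0.1 and 1, voom on the recovered fragments, only the groups compared, the replicate block and each library left out. Named besides the 10 genes and Tlr4 were the 3 tested genes most correlated with each, leaving out the 10 and provisional Gm and Rik symbols. From each list came the 2 of lowest p for Salmonella in wild-type hosts and the 1 of lowest interaction p. The others called in a list, those of an overlap or of the chromosome 9 cluster, Ctsk and the AP-1 genes were chosen after their values were seen. The 10 genes and all lists were chosen with earlier results of these data known. Promoters are RefSeq sequences of GRCm38.p6; exon overlaps and shared runs use GENCODE M21 of GRCm38, and the authors' annotation may differ.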

Additional observations from a re-analysis of the deposited data

How the results depend on the processing

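Of the single-gene results for the 10 genes, 685 kept their direction and side of the threshold over the alternatives, 22 no longer passed, 12 newly passed and 31 changed sign; none that changed sign had passed, and the causes were not tested. In wild-type hosts Mmp3, Mmp10, Mmp19 and Timp1 passed in 14 of 14 alternatives, Timp2 in 12 and Mmp13 in 9. Under Salmonella the lower levels of Mmp3, Mmp19 and Timp1 in knockout hosts passed in 9 of 14 each. Their direction was the same in all 14. With FPKM as deposited the median of all genes shifted to -0.02 for Salmonella in knockout and -0.19 in wild-type hosts, 0.16 for knockout against wild type under Salmonella and 0.16 for the interaction; the share of calls that were higher was 67.2% (56.5% with scaling), 30.8% (54.2%) and 58.5% (33.4%) in the first 3, and voom gave 27.3% in knockout hosts. Genes lower with Salmonella in wild-type hosts were then 2 of the 10, Mmp2 and Timp2 (1 with scaling), Mmp14 turned to -0.092 there, Mmp2 to 0.013 for knockout against wild type under Salmonella and Timp2 to 0.12 for the interaction, and 6 interactions were called over all genes (3 with scaling). The main fit did not pair libraries by title label. Deviations of same-label libraries correlated at -0.33 to 0.40, with 7 of 18 pairs over 0.1. No reference for these values was made, so they do not decide whether the labels pair libraries. With the replicate block 46 genes in all were called in knockout hosts (92 without), and 2 of the 10 genes, Mmp2 and Timp2, were lower in wild-type hosts. Salmonella against PBS in knockout hosts called 33 genes with no filter, 22 with voom and 189 with only the groups compared; in wild-type hosts only the groups compared gave 2415 (4312 in the full fit). Knockout against wild type under Salmonella called 531 with voom and 12 with only the groups compared (1063 in the full fit), where 0 of the 10 were lower; under PBS no filter gave 1 call (0 with it), and voom gave 0 interactions. Leaving out 1 library each gave 4 to 297 calls in knockout hosts with 0 to 2 of the 10 lower, 2049 to 6199 in wild-type hosts with 0 to 1 lower, 10 to 4559 for knockout against wild type under Salmonella with 0 to 6 lower, and 2 to 2211 interactions with 0 to 4 lower. Estimates whose sign then changed ranged as follows: Mmp12 from -0.71 to 0.62 for Salmonella in knockout hosts; under Salmonella between hosts Mmp2 -0.29 to 0.051, Mmp12 -0.53 to 0.087 and Timp2 -0.039 to 0.17; under PBS between hosts Mmp2 -0.067 to 0.37, Mmp3 -0.56 to 0.11, Mmp10 -0.28 to 0.28, Mmp12 -1.22 to 0.11, Mmp13 -0.21 to 0.32, Mmp19 -0.20 to 0.075, Timp1 -0.022 to 0.083 and Timp3 -0.44 to 0.20; for the interaction Mmp12 -0.40 to 0.94 and Timp2 -0.16 to 0.074. A fit that leaves a group with 2 libraries borrows its spread from the others. Depth is least for Mmp10, with as few as 14 fragments in a library.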
